A study of Mus musculus with 4 samples.

Results

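The 7 genes Fos, Fosb, Fosl1, Fosl2, Jun, Junb and Jund encode the Fos and Jun proteins that form the transcription factor AP-1. They were chosen by name, as every non-control probe whose gene name, or whose accession's current symbol, is 1 of these 7. On the arrays they were 9 probes in 27 spots, out of 27597 named genes and 41174 probes. Fos and Jun each had 1 probe printed in 10 spots, Fosl2 and Junb each had 2 probes, and Fosb, Fosl1 and Jund each had 1 probe in 1 spot.

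CD4+ T cells came from the spleen and lymph nodes of Balb/C mice, and their total RNA was measured on 4 one-colour (Cy3) Agilent arrays, 1 for each group. The naive T cells had the phenotype CD4+CD25-CD62L-high and were not transduced. The natural regulatory T cells (Treg) had the phenotype CD4+CD25+ and were likewise untransduced. In the 2 other samples a lentivirus brought a short hairpin RNA into Treg, which then spent 60 h in medium with human IL-2 before GFP+ cells were sorted. The hairpin labelled si-Eos was directed at Eos, a zinc-finger transcription factor (gene Ikzf4), and the hairpin labelled si-RL at Renilla luciferase, a gene that mouse cells lack, as the control. CD25 marks recently activated T cells as well as Treg, so that gate alone does not define Treg. A hairpin library differed from the Treg array in transduction, culture and the GFP sort together, and these cannot be told apart. No group had a second array, so there is no spread between samples, no test was run and each difference compares 2 libraries. In bulk RNA, fewer cells of a type and less RNA per cell cannot be told apart.

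Fos and Jun proteins carry a basic DNA-binding region and a leucine zipper. Fos proteins bind DNA mainly as dimers with a Jun protein, whereas Jun proteins can also pair with each other, and the dimers recognise TRE and CRE sequences. In T cells, signals from the antigen receptor reach the Fos and Jun genes through MAP kinases. Several are immediate early genes, transcribed within minutes of a stimulus into short-lived mRNA. AP-1 binds beside NFAT at many cytokine genes, and in Treg Foxp3 acts together with NFAT at some of these sites.

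The start regions of Fos, Fosb, Jun and Fosl2 are shown because Fos, Fosb and Jun were lowest in the si-Eos-labelled library while Fosl2 was highest there. RefSeq windows of mouse build GRCm38.p6 were found for 6 of the 7 genes, from 250 bases before the start to 50 after it, reading along the gene; Fosl1 was not among them. They are chr12:85473640-85473939 (plus strand) for Fos, chr7:19309996-19310295 (minus) for Fosb, chr4:95052173-95052472 (minus) for Jun and chr5:32136222-32136521 (plus) for Fosl2. Capitals mark matches to TGACG, TGACATCA or TATAAA.
Fos: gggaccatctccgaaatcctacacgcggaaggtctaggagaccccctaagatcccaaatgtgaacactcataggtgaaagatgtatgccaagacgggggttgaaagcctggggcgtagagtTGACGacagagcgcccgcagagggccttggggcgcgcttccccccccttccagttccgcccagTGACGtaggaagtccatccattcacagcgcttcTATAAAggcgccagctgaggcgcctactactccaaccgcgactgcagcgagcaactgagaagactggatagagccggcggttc
Fosb: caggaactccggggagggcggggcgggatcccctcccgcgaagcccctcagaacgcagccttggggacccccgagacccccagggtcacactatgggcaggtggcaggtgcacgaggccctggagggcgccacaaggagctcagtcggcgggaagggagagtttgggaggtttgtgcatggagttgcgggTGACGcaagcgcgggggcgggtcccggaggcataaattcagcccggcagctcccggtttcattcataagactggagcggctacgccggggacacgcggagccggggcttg
Jun: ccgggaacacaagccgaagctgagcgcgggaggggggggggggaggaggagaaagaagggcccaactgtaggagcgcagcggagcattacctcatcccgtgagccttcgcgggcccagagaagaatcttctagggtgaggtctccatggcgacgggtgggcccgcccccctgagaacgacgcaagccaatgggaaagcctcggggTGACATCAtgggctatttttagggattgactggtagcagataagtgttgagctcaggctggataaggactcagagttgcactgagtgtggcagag
Fosl2: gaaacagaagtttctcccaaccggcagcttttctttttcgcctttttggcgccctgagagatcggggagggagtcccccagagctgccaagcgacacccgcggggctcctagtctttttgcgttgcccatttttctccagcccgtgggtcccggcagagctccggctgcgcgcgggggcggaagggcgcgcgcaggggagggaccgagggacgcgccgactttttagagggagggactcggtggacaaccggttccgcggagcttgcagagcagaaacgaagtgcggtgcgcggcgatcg

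Each window was searched on both strands for the CRE (TGACGTCA), the TRE (TGAGTCA), the TGACATCA known from the Jun promoter, TATAAA and the CArG box that SRF binds. The shorter TGACG, with which every CRE begins, was added after the windows had been seen. Fos held TGACG at -129 to -125 and at -66 to -62 from its start, and TATAAA at -33 to -28. No CArG box matched in the Fos window, but sites more than 250 bases upstream were not searched. The window therefore cannot show whether Fos has a CArG box further away. Fosb held 1 TGACG at -60 to -56. Jun held TGACATCA at -45 to -38, and none of these motifs lay in the Fosl2 window. In the windows not shown, Junb held TGACG at -106 to -102 and TATAAA at 0 to 5 from its start, and Jund held none of the motifs. Of 32851 promoter windows of the same length, 20.8% held TGACG, 13.6% TATAAA, 3.62% TGACATCA, 1.79% the CRE, 5.2% the TRE and 1.63% the CArG box. These matches are descriptions of the letters in the windows.

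Between 64.0% and 68.3% of probes were well above background on each array, and all 9 AP-1 probes were so on all 4. All arrays lay on 1 slide and were read in 1 scan. Levels below are on a linear scale where the array's 75th percentile of processed signal is 1, and differences are on the log2 scale. The ± is the scanner software's error of both spots combined and covers spot error only. The Fos probe lies at chr12:86366053-86366112 of build mm8, as the scanner files give it, the Fosb probe at chr7:18461650-18461709 and the Fosl1 probe at chr19:5455496-5455555. The brighter Fosl2 probe lies at chr5:32433832-32433891 and the Jun probe at chr4:94541191-94541250. The brighter Junb probe lies at chr8:87867087-87867146 and the Jund probe at chr8:73629526-73629585. Levels are set against each other for 1 probe across arrays, not between probes, except that the marker sums add the levels of different probes. Ikzf4, the gene targeted, was higher in the si-Eos-labelled library than in the si-RL-labelled library on all 3 of its probes, by 1.96, 0.93 and 1.19, contrary to the label. Its levels stood nearer the fresh Treg array in the si-Eos-labelled library (0.69, -0.25 and 0.52) than in the si-RL-labelled library (-1.27, -1.18 and -0.67). Foxp3, the factor that defines Treg, had processed signals of 64.4 in naive T, 1778 in Treg, 2644 in the si-Eos-labelled library and 110.1 in the si-RL-labelled library. Were the hairpin labels exchanged, the signs between these libraries would turn, so both are named by their labels throughout.

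Fos, the founding member and the usual partner of Jun after a stimulus, was higher in both freshly sorted populations than after transduction and culture. Its level stood at 39.6 in naive T, 30.6 in Treg, 7.26 in the si-RL-labelled library and 1.03 in the si-Eos-labelled library. The 8 to 10 replicate spots per array ranged from 37.8 to 41.8, from 28.5 to 33.4, from 6.90 to 7.69 and from 0.980 to 1.09 in the same order, so no array's spots overlapped another's. Fos was 4.22-fold lower in the si-RL-labelled library than in Treg (-2.08 ± 0.20) and 29.8-fold lower in the si-Eos-labelled library (-4.90 ± 0.20). It was 7.07-fold lower under the si-Eos label than under the si-RL label (-2.82 ± 0.20). Against Treg, only 25 of 17897 measured genes, Fos included, stood as low in the si-Eos-labelled library. Treg and naive T differed by -0.37 ± 0.20, which is under 2-fold and ranged from -0.79 to -0.08 over the alternative scalings and background correction.

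Fosb, a close relative of Fos that is also induced early, had the same order of levels in the hairpin libraries. Its level stood at 2.44 in naive T, 2.50 in Treg, 1.32 in the si-RL-labelled library and 0.341 in the si-Eos-labelled library. The fresh populations stood together (0.03 ± 0.20), with a sign that turned under median scaling and under normexp, a model-based background correction. The si-RL-labelled library was 1.90-fold below Treg (-0.93 ± 0.20), just inside 2-fold, and passed 2-fold when arrays were scaled to the spike-in probes (-1.20). The si-Eos-labelled library was 7.34-fold below Treg (-2.88 ± 0.21) and 3.86-fold below the si-RL-labelled library (-1.95 ± 0.21). Fos and Fosb were thus lowest in the same library.

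Fosl2 (Fra-2), a Fos protein without the strong activation domain of Fos, ran the other way and was highest in the cultured libraries. Its brighter probe read 0.244 in naive T, 0.0877 in Treg, 1.52 in the si-RL-labelled library and 2.16 in the si-Eos-labelled library. It stood 17.4-fold above Treg in the si-RL-labelled library (4.12 ± 0.23) and 24.6-fold above Treg in the si-Eos-labelled library (4.62 ± 0.23). Only 21 of 17082 and 26 of 17897 measured genes, Fosl2 included, stood as high in these comparisons. The dimmer probe, at 0.143, 0.0959, 0.457 and 0.801 in the same order, gave smaller differences in the same direction, 4.77-fold (2.25 ± 0.22) and 8.36-fold (3.06 ± 0.22). With normexp the brighter probe's differences were 1.08 and 1.55, the smallest over the alternatives. The hairpin libraries differed on these probes by 0.50 ± 0.20 and 0.81 ± 0.21, both under 2-fold.

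In the fresh cells, Fosl2 was the 1 member at least 2-fold apart, 2.79-fold below its naive T level in Treg on the brighter probe (-1.48 ± 0.24), and this sign turned with normexp (0.59). The other probe gave -0.58 ± 0.23, under 2-fold. The signals behind this difference were low, 74.0 in naive T and 34.4 in Treg on the brighter probe.

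Fosl1 (Fra-1), the other Fos protein of that kind, was dim on 3 arrays and brighter on 1, with processed signals of 15.3 in naive T, 15.4 in Treg, 18.3 in the si-RL-labelled library and 72.6 in the si-Eos-labelled library. The lowest signals called well above background were between 8.90 and 11.2 on the 4 arrays, so 3 of the 4 values lay close to that limit. The si-Eos-labelled library stood apart, 5.77-fold above Treg (2.53 ± 0.30) and 3.24-fold above the si-RL-labelled library (1.70 ± 0.26). Normexp starts from the raw mean spot signal and the local background instead of the processed signal, and adds an offset of 50. With it the first difference turned to -0.75 and the second was 0.52. The remaining differences were under 2-fold, with signs that turned and sizes that passed 2-fold under normexp. They were 0.83 ± 0.34 for the si-RL-labelled library against Treg (-1.27) and -0.36 ± 0.35 for Treg against naive T (1.02).

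Jun, the partner that dimerises with every Fos protein and can also bind DNA alone as a dimer of itself, was lower in the si-Eos-labelled library than on any other array. Its level stood at 3.09 in naive T, 2.84 in Treg, 2.36 in the si-RL-labelled library and 1.11 in the si-Eos-labelled library. Over 9 or 10 spots per array the ranges were 2.94 to 3.44, 2.77 to 2.93, 2.24 to 2.58 and 1.06 to 1.14. The spots of naive T and Treg nearly met, and those of the si-Eos-labelled library lay well below the rest. Jun was 2.56-fold lower there than in Treg (-1.35 ± 0.20) and 2.13-fold lower than in the si-RL-labelled library (-1.09 ± 0.20). With normexp both were just under 2-fold, at -0.87 and -0.94. The si-RL-labelled library differed from Treg by -0.26 ± 0.20 and Treg from naive T by -0.12 ± 0.20; each of these signs turned under 1 alternative, to 0.08 with normexp and to 0.16 with spike-in scaling.

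Junb, a Jun protein that often restrains Jun and is induced with Fos, was lowest in the si-RL-labelled library instead. Its brighter probe read 333.7 in naive T, 297.4 in Treg, 116.9 in the si-Eos-labelled library and 81.7 in the si-RL-labelled library, with the other probe at 203.1, 178.0, 68.7 and 54.0. Against Treg, the si-RL-labelled library was 3.64-fold lower (-1.86 ± 0.20; other probe -1.72) and the si-Eos-labelled library 2.54-fold lower (-1.35 ± 0.20; other probe -1.37). With normexp the second was -0.75. Junb was 0.52 ± 0.20 higher under the si-Eos label than under the si-RL label, and 0.35 on the other probe, both under 2-fold. Treg and naive T differed by -0.17 ± 0.20, with a sign that turned under quantile normalization (0.42) and spike-in scaling (0.12).

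Jund, the Jun protein that resting cells express most steadily, had the same order of arrays as Junb. Its level stood at 100.6 in naive T, 77.4 in Treg, 37.6 in the si-Eos-labelled library and 29.9 in the si-RL-labelled library. It was 2.58-fold lower than Treg in the si-RL-labelled library (-1.37 ± 0.20) and 2.06-fold lower in the si-Eos-labelled library (-1.04 ± 0.20). Both were inside 2-fold with normexp (-0.86 and -0.41), and the second also with median scaling (-0.93). The hairpin libraries were 0.33 ± 0.20 apart, and Treg and naive T -0.38 ± 0.20.

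**Figure D1:**
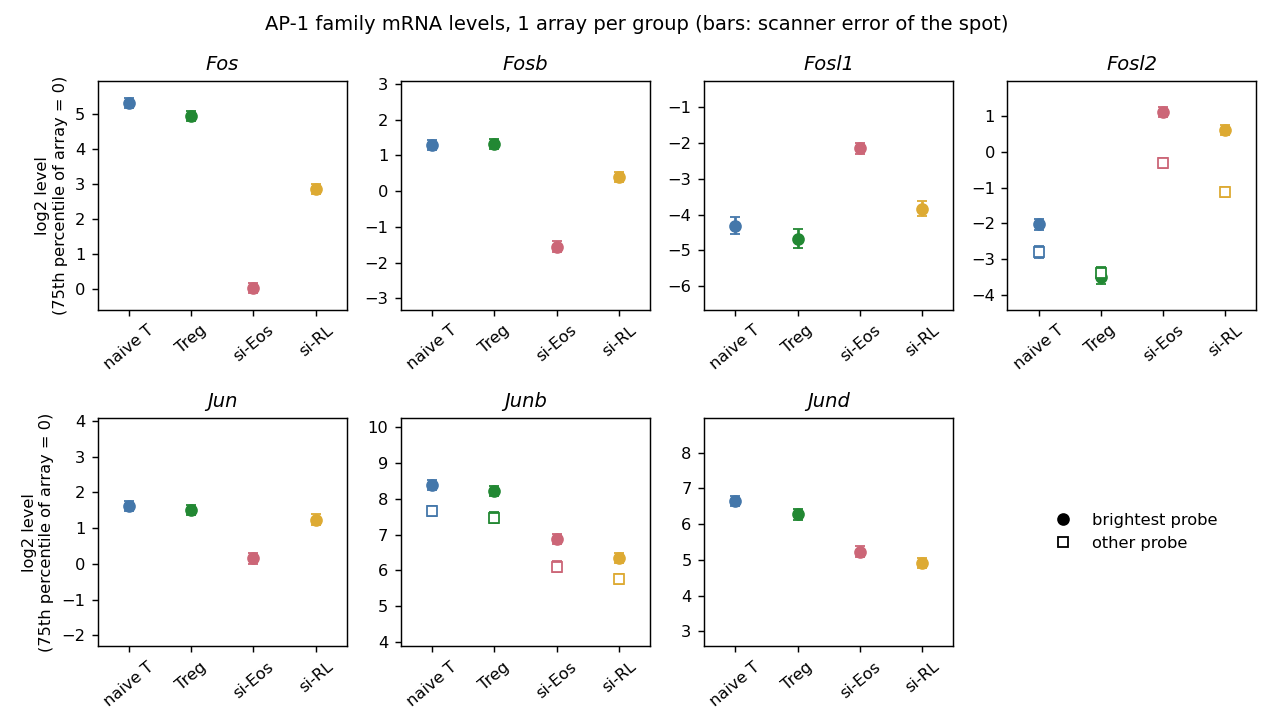
Log2 level (vertical axis, 75th percentile of each array at 0) of the 7 AP-1 genes on the 4 arrays (horizontal axis). Filled circles are the brightest probe with the scanner error, open squares the other probe; Fos, Fosb and Jun are lowest in si-Eos, Junb and Jund lowest in si-RL, and Fosl2 is higher in both hairpin libraries than in the fresh cells.

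**Figure D2:**
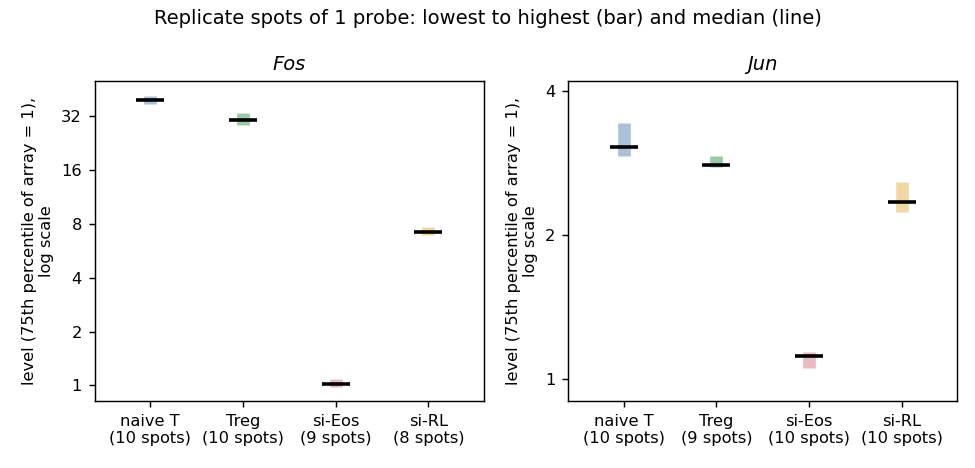
Level of the replicate spots of Fos and Jun (vertical axis, log scale, 75th percentile of each array at 1) by array, with bars from the lowest to the highest spot and lines at the median. The Fos spots of si-Eos reach 1.09 at most and those of naive T 37.8 at least; spots of 1 array share 1 RNA sample and show printing and scanning error only.

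In the freshly sorted cells the family differed little. Of the 7 members, 0 were at least 2-fold above naive T in Treg, beside 5.51% of the 17595 measured genes, and 1 was lower (Fosl2), beside 2.04%. The members' median difference was -0.36, against -0.02 over all measured genes. The share of higher genes among all that were 2-fold apart was 73.0% here, 55.2% with median scaling, 88.2% with spike-in scaling and 83.7% with normexp. Those alternatives moved the median of all genes by -0.21, 0.29 and 0.23.

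In the si-RL-labelled library against Treg, 1 member was at least 2-fold higher (Fosl2), beside 7.89% of 17082 measured genes, and 3 were lower (Fos, Junb and Jund), beside 8.21%. With normexp, 1 was higher (Fosl2), where 960 of 17082 genes were, and 3 were lower, where 4473 were. Those 3 were Fos, Junb and Fosl1 (-1.27), with Jund inside 2-fold (-0.86). The median in the main setting was -0.93, against -0.01 over all genes. Of genes 2-fold apart, 49.0% were higher, and 25.0% with spike-in scaling or 17.7% with normexp, which moved the median of all genes by -0.27 and -0.31.

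In the si-Eos-labelled library against the same Treg array, all 7 members passed 2-fold. Fosl1 and Fosl2 were higher, where 8.85% of 17897 measured genes were, and Fos, Fosb, Jun, Junb and Jund were lower, where 10.0% were. With normexp, 1 was higher (Fosl2), where 1449 of 17897 genes were, and 2 were lower (Fos and Fosb), where 5888 were. The median was -1.35, against 0.06 over all genes. Higher genes were 46.8% of those apart, 26.2% with spike-in scaling and 19.7% with normexp, which moved the median of all genes by -0.29 and -0.42; median scaling moved it by 0.12.

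Between the hairpin libraries, 1 member was at least 2-fold higher under the si-Eos label (Fosl1), where 10.7% of 17082 measured genes were, and 3 were lower (Fos, Fosb and Jun), where 10.1% were. With normexp 0 were higher, where 1136 of 17082 genes were, and 2 were lower, where 827 were, Jun being just under 2-fold. The median of the members was 0.33, against 0.04 over all genes, so the members split rather than shifting together.

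**Figure D3:**
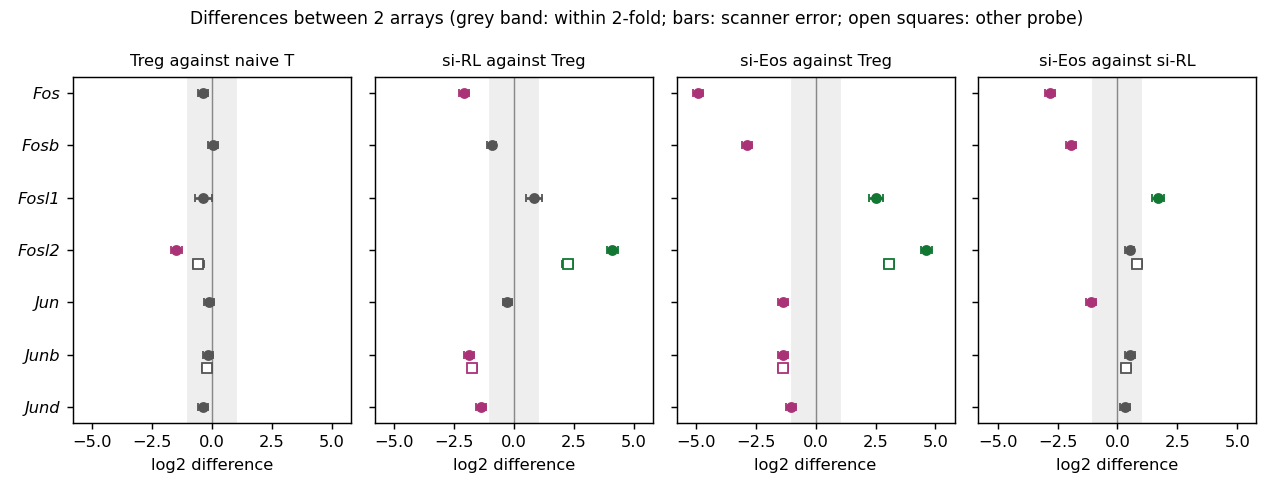
Log2 difference (horizontal axis) of each AP-1 gene (vertical axis) in the 4 comparisons; circles are the brightest probe, bars the scanner error, open squares the other probe, and the grey band is within 2-fold. Fosl2 lies 4.12 and 4.62 above Treg in the si-RL- and si-Eos-labelled libraries, and Fos lies 2.08 and 4.90 below; both panels use the same Treg array.

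The unequal change within 1 array does not depend on how arrays are scaled to each other by a constant. From Treg to the si-RL-labelled library, the log2 change of Fos minus that of Fosl2 was -6.19, a 73.2-fold gap, and to the si-Eos-labelled library it was -9.52, a gap of 734-fold. Both gaps rest on the brighter Fosl2 probe; with the other probe they were 20.1-fold and 249-fold, and with normexp 5.74-fold and 48.2-fold. Fos and Junb changed almost alike from Treg to the si-RL-labelled library (a gap of -0.21) and far apart to the si-Eos-labelled library (-3.55). The gap between Fos and Jun was -1.81 and -3.54 in the same order. Junb and Jund stayed within 0.50 of each other in all 4 comparisons, with gaps of 0.21 for Treg against naive T, 0.19 between the hairpin libraries, and -0.50 and -0.31 for the si-RL- and si-Eos-labelled libraries against Treg.

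The genes nearest in pattern were found by the root mean square distance of centred log2 levels over the 4 arrays, among 12705 genes well above background on all of them. Fos had few near it: Ifi209 at 0.20, then Slamf6 at 0.43 and St8sia6 at 0.44. Fosl2 had none so near, with Slc19a2 at 0.49, the metallothionein Mt2 at 0.56 and Inka2 at 0.58. Fosb was matched closely by Cd1d1 (0.03), then Art2b (0.10) and Atp10d (0.14). Fosl1 lay nearest Atf5, another bZIP gene (0.09), Il12rb2, a chain of the IL-12 receptor (0.09), and Atp6v0b (0.12). Jun lay nearest Glod5 (0.03), Syne1 (0.05) and Itga6 (0.05). Junb lay nearest Ovca2 (0.10), Gtdc1 (0.12) and Rgs2 (0.13), and Jund nearest Klf6 (0.06), Tlr1 (0.06) and Aven (0.07). With 4 points such matches are common and say nothing of shared control.

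Among the other bZIP genes, which can pair with Jun or Fos proteins or compete for the same sites, 13 of 14 were measured in each comparison. Against Treg, 6 were at least 2-fold higher and 0 lower in the si-Eos-labelled library, and 1 was higher and 1 lower in the si-RL-labelled library. Over all measured genes 8.85% were higher and 10.0% lower in the first, and 7.89% and 8.21% in the second. These shares stand beside the counts of every list below. The others are 10.7% and 10.1% between the hairpin libraries, and 5.51% and 2.04% for Treg against naive T. With normexp the bZIP counts were 4 and 0, and 1 and 3. Over all genes they were then 1449 and 5888 of 17897, and 960 and 4473 of 17082. Atf3, a stress-induced repressor, had processed signals of 69.6 in naive T, 245.1 in Treg, 1907 in the si-Eos-labelled library and 143.1 in the si-RL-labelled library. Its difference from Treg was 3.25 ± 0.21 in the si-Eos-labelled library and -0.20 ± 0.21 in the si-RL-labelled library. Jdp2, which dimerises with Jun and represses, had signals of 47.4, 151.6, 732.7 and 48.5 in the same order, and differed from Treg by 2.57 and -1.06.

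Crem, a cAMP-responsive bZIP gene, was higher in both hairpin libraries, by 3.88 in the si-Eos-labelled library and 2.15 in the si-RL-labelled library. Its 5 other probes did not agree, with differences from -0.46 to 4.10 and from 0.75 to 2.31. Batf, which pairs with Jun proteins at sites shared with IRF4, was 1.04 higher in Treg than in naive T and within 2-fold of Treg in both hairpin libraries (0.74 and -0.08). With normexp the first was 1.23, past 2-fold; over the alternative settings the second ran from -0.35 to 0.44, so it has no settled sign. Between the hairpin libraries, 5 bZIP genes were higher under the si-Eos label, led by Jdp2 (3.63), Atf3 (3.45) and Crem (1.73). The 5 other Crem probes did not agree here either, running from -1.21 to 1.85. The 1 lower gene was Creb1 (-1.02, with 2 other probes at -0.48 and 0.88). With normexp 3 were higher and 0 lower. In Treg against naive T, 3 were higher (Atf3, 1.44; Jdp2, 1.31; Batf) and 1 lower (Maff, -1.20). All 4 were inside 2-fold under an alternative, Atf3, Jdp2 and Batf with normexp (0.90, 0.95 and 0.66) and Maff with spike-in scaling (-0.91), as was Creb1 with normexp (-0.95). The medians of the list were 0.15 for Treg against naive T, 0.32 and 0.74 for the si-RL- and si-Eos-labelled libraries against Treg, and 0.59 between the hairpin libraries.

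The kinases that carry receptor signals to AP-1 were measured for all 20 listed genes. Of these, 2 were at least 2-fold higher and 5 lower under the si-Eos label than under the si-RL label, with a median of -0.12. The lower genes were led by Map2k6, a p38 kinase kinase (-2.73), Rasgrp1, the Ras activator of T cells (-2.49, and -0.95 on its other probe), and Prkcq, the protein kinase C of the antigen receptor pathway (-1.46, and -0.98 on its other probe). Map2k6 had a signal of only 17.6 in the si-Eos-labelled library, where the lowest signal called well above background was 9.12. No other probe of Map2k6 was measured in either comparison of that library given here. Map2k3 (1.80) and Hras (1.58) were higher. Against Treg the si-Eos-labelled library had 2 higher and 4 lower, among them Map2k6 (-3.09) and Mapk8, the Jun kinase JNK1 (-1.45, with other probes at -0.56 and -0.47). The si-RL-labelled library had 1 higher, Map3k8 (1.47), which was inside 2-fold with normexp (0.58), as was Mapk8 in the si-Eos-labelled library (-0.93). Treg against naive T had 1 higher, Map3k8 (2.13), and 0 lower. The medians against Treg were 0.04 for the si-RL-labelled library and 0.23 for the si-Eos-labelled library, and 0.04 for Treg against naive T.

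SRF and its partners drive Fos transcription through the CArG box, and 5 of the 6 listed genes were measured. Elk3 was 2.10 lower in the si-RL-labelled library than in Treg and 2.18 higher in the si-Eos-labelled library than in the si-RL-labelled library. Mrtfb was lower than Treg in both (-1.45 and -1.21 in the si-RL- and si-Eos-labelled libraries) on its brightest probe, while 2 other probes gave -0.54 to 0.14 and -0.82 to -0.35, all inside 2-fold. No listed gene was 2-fold apart between Treg and naive T. The medians of the list were -0.06 for Treg against naive T, -0.33 and -0.56 for the si-RL- and si-Eos-labelled libraries against Treg, and -0.23 between them. Srf itself had signals of 1186 in naive T, 1473 in Treg, 818.6 in the si-Eos-labelled library and 785.1 in the si-RL-labelled library.

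NFAT and calcineurin act beside AP-1, and all 9 listed genes were measured. In the si-RL-labelled library against Treg, Ppp3ca, a catalytic subunit of calcineurin (1.43), and Nfatc2 (1.07) were higher and 0 were lower. The 3 other Nfatc2 probes did not agree, with differences from -0.35 to 1.20. In the si-Eos-labelled library, Nfat5 was 1.07 above Treg, and 5 other probes gave 0.36 to 0.98. With spike-in scaling Nfatc2 and Nfat5 were just inside 2-fold, at 0.80 and 0.77. Compared with each other, the hairpin libraries had Nfat5 higher under the si-Eos label (1.42, other probes 0.11 to 1.08) and Ppp3ca (-1.85) and Nfatc3 (-1.07) lower. None of the 9 was 2-fold apart between Treg and naive T. The medians were 0.19 for Treg against naive T, 0.39 and 0.18 for the si-RL- and si-Eos-labelled libraries against Treg, and -0.31 between them.

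Of 10 genes that act on AP-1 mRNA or protein turnover, Zfp36 (tristetraprolin, which speeds the decay of AU-rich mRNAs) resembled Fos in direction. Its signals were 4495 in naive T, 5505 in Treg, 511.7 in the si-Eos-labelled library and 574.3 in the si-RL-labelled library. It lay 2.68 below Treg in the si-RL-labelled library and 3.14 below Treg in the si-Eos-labelled library, and its other probe gave -2.82 and -3.22. The hairpin libraries differed by -0.45, under 2-fold. Nedd4, a ubiquitin ligase of the same family as Itch, which targets Jun proteins, was 2.26 above Treg in the si-Eos-labelled library, with other probes at 0.95 and 1.32 and inside 2-fold with normexp (0.93), and 1.77 above the si-RL-labelled library. In counts, 2 of 10 were higher and 0 lower in Treg against naive T, and 3 were higher and 1 lower between the hairpin libraries. The si-RL-labelled library had 0 higher and 1 lower against Treg, and the si-Eos-labelled library 1 higher and 2 lower. The medians of these comparisons lay between -0.09 and 0.06. With normexp the si-RL-labelled library had 2 higher and 1 lower, and the si-Eos-labelled library 2 and 2 with a median of 0.55.

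The 24 other immediate early genes did not all stand where Fos stood. Against Treg, 3 were higher and 9 lower in the si-RL-labelled library (median -0.50), and 7 were higher and 6 lower in the si-Eos-labelled library (median -0.16). Dusp1, a phosphatase that switches MAP kinases off, had signals of 13559 in naive T, 21146 in Treg, 1030 in the si-Eos-labelled library and 2632 in the si-RL-labelled library. It differed from Treg by -4.07 and -2.43 in the si-Eos- and si-RL-labelled libraries, and Rhob (-2.41 and -2.19) and Tnfaip3 (-2.51 and -1.18) were low in both too.

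Myc, at signals of 2162, 3327, 9460 and 9440 in naive T, Treg and the si-Eos- and si-RL-labelled libraries, was higher in both hairpin libraries (1.80 and 2.09). Egr2, an early growth response factor induced with Fos by receptor signals, was 2.42 above Treg in the si-Eos-labelled library and -0.84 from it in the si-RL-labelled library. Nr4a2, a nuclear receptor induced by the same signals, stood at 1.02 and -3.34. Egr1 was within 2-fold of Treg in both (0.83 and 0.93), with signals of 1771, 2205, 3203 and 2810. The second value was just inside 2-fold, and with median scaling 4 genes of the list, not 3, were higher in the si-RL-labelled library. Between the hairpin libraries 8 were higher under the si-Eos label and 3 lower (Dusp1, -1.64; Btg2, -1.47; Tnfaip3, -1.33). In Treg against naive T, 3 of the 23 measured were higher (Gadd45b, 1.36; Nr4a2, 1.27; Egr2, 1.13) and 1 lower (Sgk1, -1.66). With normexp the 3 higher ones were inside 2-fold, at 0.96, 0.74 and 0.68. Ier3, a survival gene, had signals of 11.8, 15.9, 222.7 and 56.4 and stood 4.10 and 2.41 above Treg in the si-Eos- and si-RL-labelled libraries, but at 0.17 and -0.87 with normexp.

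**Figure D4:**
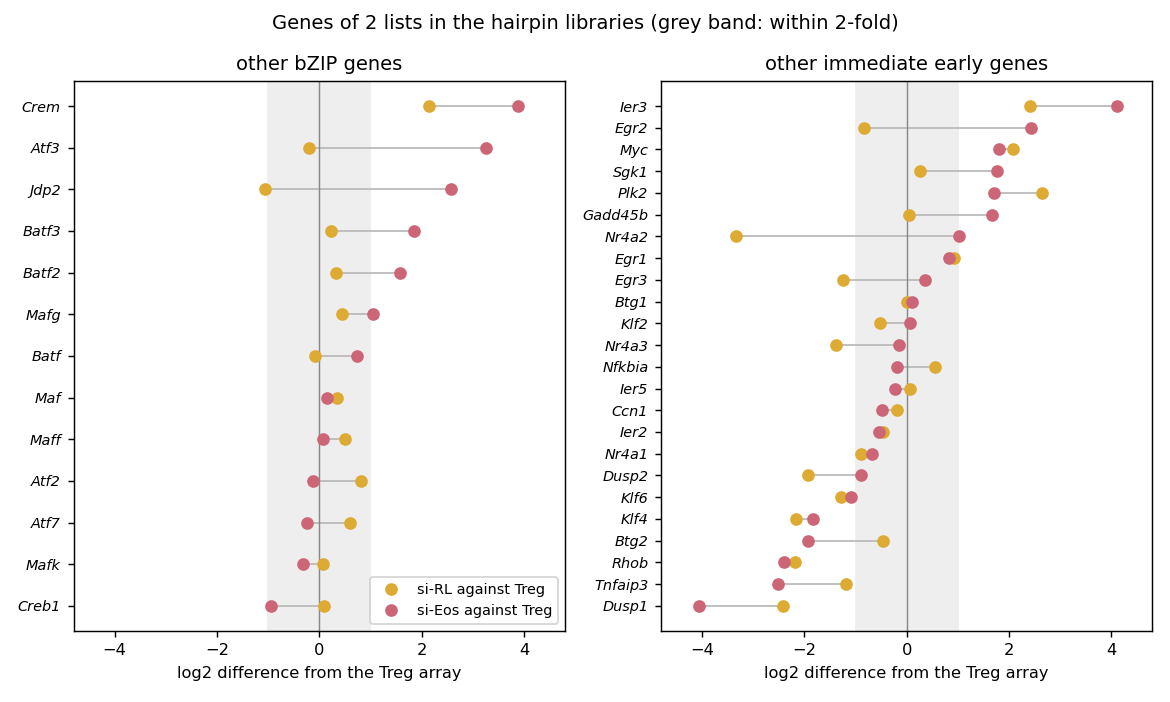
Log2 difference from the Treg array (horizontal axis) of the measured other bZIP genes and other immediate early genes (vertical axes) in the si-RL- and si-Eos-labelled libraries, joined by a line, with the grey band within 2-fold. Atf3 and Jdp2 lie 3.25 and 2.57 above Treg in si-Eos and -0.20 and -1.06 from it in si-RL, while Dusp1 is below Treg in both.

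Cytokine and surface genes that NFAT and AP-1 are known to drive were measured for 14 or 15 of 18. In Treg against naive T 5 were higher and 2 lower. The higher ones were led by Il2ra (5.33), the CD25 chain used to sort Treg, Ctla4 (3.65) and Ifng (2.86). Ifng had signals of 439.5 in naive T, 4125 in Treg, 3941 in the si-Eos-labelled library and 117.3 in the si-RL-labelled library. Between the hairpin libraries 5 were higher under the si-Eos label, led by Ifng (4.78), Cd44 (2.76) and Ctla4 (2.49), and 2 were lower, the early activation marker Cd69 (-2.42) and Nfkbiz (-2.07). Against Treg, 2 were higher and 3 lower in the si-RL-labelled library, and 3 higher and 2 lower in the si-Eos-labelled library. With normexp 1 was higher and 8 lower in the si-RL-labelled library (median -1.06), and 2 were higher and 5 lower in the si-Eos-labelled library (median -0.50). The 2 higher in the si-RL-labelled library, Csf2 (1.58) and Il4 (just at 2-fold), turned sign with it (-1.17 and -0.33). The medians were 0.27 for Treg against naive T, 0.06 and 0.21 for the si-RL- and si-Eos-labelled libraries against Treg, and 0.45 between them (-0.01 with normexp). Il2 read near the background on all arrays, with signals between 16.4 and 32.2.

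Handling of cells during isolation can induce Fos and heat shock genes together, and 10 heat shock genes were measured. In the si-RL-labelled library against Treg 0 were higher and 5 lower (median -0.88), among them Hspa1a (-3.28, with 3 other probes from -3.34 to -1.51). In the si-Eos-labelled library against Treg, 0 were 2-fold apart (median -0.06), and between the hairpin libraries 4 were higher and 0 lower. No heat shock gene was 2-fold apart between Treg and naive T. With normexp the medians against Treg were -0.29 with 0 higher and 1 lower in the si-RL-labelled library, and 0.57 with 1 higher and 0 lower in the si-Eos-labelled library. The part of cell handling in the Fos levels was not tested.

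Cell type markers also differed between the arrays. The summed level of 7 Treg markers reached 27.5 in naive T, 147.8 in Treg, 322.3 in the si-Eos-labelled library and 119.7 in the si-RL-labelled library, with Tnfrsf18 alone at 81.7, 237.1 and 109.0 on the last 3. Gene by gene, 5 of the 7 were at least 2-fold lower and 0 higher in the si-RL-labelled library than in Treg (median -2.43), among them Itgae (-6.59) and Ikzf2 (-3.95). In the si-Eos-labelled library 2 were higher and 1 lower than in Treg (median 0.20). The sum of 7 naive T cell markers was 207.4, 71.8, 69.1 and 180.1. The 6 pan T cell markers summed to 232.9, 208.4, 193.2 and 133.6, with Cd5 alone at 80.5, 88.2, 81.9 and 26.1. Of 7 NK and CD8 T cell markers, 6 or 7 were above background per array, and their sum was 6.58, 8.86, 54.4 and 4.04, the third value coming mostly from Nkg7 at a signal of 16147. The defining NK receptor Ncr1 was above background only on the Treg array. Plasma cell markers (4 genes) summed to 24.9, 25.0, 6.88 and 1.66, a sum that Jchain led in the fresh cells. Jchain, the joining chain of secreted antibodies, had signals of 7008 and 8827 in the fresh cells and 6.70 and 18.4 in the si-Eos- and si-RL-labelled libraries. Of the same list, Xbp1 (1.58) and Prdm1 (1.52) were above Treg in the si-Eos-labelled library. Of 7 B cell markers 5 or 6 were above background, summing to 1.13 to 3.11, and of 8 myeloid markers 3 to 5, summing to 1.35 to 1.46 with S100a8 below background on all arrays. The part of these cells in the AP-1 differences was not tested.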

How the data were processed

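Total RNA of 4 samples was amplified linearly, labelled with Cy3 and hybridised to 4 arrays, per the labels' protocols. Per the file headers, Agilent Feature Extraction 9.5.3.1 made the deposited spot intensity, which is linear, had its background subtracted by spatial detrending and carries no scaling between arrays. The headers place probes on build mm8. The authors' value table held the same deposited intensity: 100% of spots agreed within 0.5%, with column medians of 33.2, 50.5, 38.5 and 31.5 for naive T, Treg, si-Eos and si-RL, so neither a log nor a centring had been applied.

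The processed signal was divided by its 75th percentile on that array (41174 non-control probes) and put on the log2 scale in Python 3.11.15 with pandas 2.3.3. Between 71 and 94 of 43379 spots per array carried outlier flags and were left out, and spots of 1 probe were averaged; 0 were saturated. Names came from RefSeq accessions of GRCm38.p6 for 24375 probes, symbols for 6301, synonyms for 2426 and the file for 8072; the Jund probe was named through its accession. A gene was represented by its brightest probe, and measured where well above background on both arrays. No test was possible with 1 array per group, and the number of arrays limits the precision. Alternatives were median, quantile and spike-in scaling (9 probes), normexp with offset 50 (limma 3.58.1 in R 4.3.3), the value table, the mean over probes and no filter. Normexp was run on the raw mean spot signal and the median local background. The counting step was tested on simulated data.

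The members, the lists and the comparisons were chosen with earlier results of these data known. Named are all members with each probe, up to 3 genes of a list each way per comparison that were furthest apart and at least 2-fold, the 3 nearest genes of each member, and Ikzf4 and Foxp3. Batf, Srf, Egr1, Il2 and list genes given below 2-fold, and marker genes named with their signals, were chosen after their values were seen.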

Additional observations from a re-analysis of the deposited data

Results flagged for a closer look

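The si-Eos- and si-RL-labelled libraries stood on opposite sides of the same Treg array, at least 2-fold on each side, for 2 genes of the lists other than cell type markers. Jdp2, which dimerises with Jun, differed from Treg by 2.57 in the si-Eos-labelled library and by -1.06 in the si-RL-labelled library. With median scaling the second value was -0.98. Nr4a2, an immediate early nuclear receptor gene, differed by 1.02 and -3.34. Its first value was under 2-fold with quantile normalization, spike-in scaling and normexp, and 0.73 at the lowest. Of the cell type markers, Nkg7 (3.25 and -2.44), Eomes (1.73 and -1.53), Tcf7 (-3.28 and 1.25) and S1pr1 (-5.12 and 1.29) also stood on opposite sides. Eomes had a signal of only 15.0 in the si-RL-labelled library. The difference was not tested for any of these genes, since each value is 1 array against 1.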

How the results depend on the processing

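Of 168 differences of AP-1 members under the alternatives, 158 kept their sign, 156 their side of 2-fold and 150 both. Of the 16 differences of at least 2-fold, 8 stayed at least 2-fold under every alternative run. Signs of at least 2-fold differences turned only with normexp, for Fosl2 in Treg against naive T (0.59) and Fosl1 in the si-Eos-labelled library against Treg (-0.75). The 28 member differences from the value table kept their sign and side, but that table holds the same intensity and could hardly differ. The mean over probes likewise returns the main value for members with 1 probe. The counts out of 168 therefore overstate how stable the differences were. Every change of side came with median scaling, spike-in scaling or normexp. The causes of these shifts were not tested.

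Counts of members at least 2-fold apart moved mainly with normexp. Spike-in scaling also gave 4 lower in the si-RL-labelled library against Treg, Fosb (-1.20) being added, beside 2376 of 17082 genes. Median scaling gave 4 lower in the si-Eos-labelled library against Treg, without Jund (-0.93), beside 1557 of 17897 genes. The changes below are those with normexp. In Treg against naive T they became 1 higher (Fosl1) and 0 lower, beside 1894 and 369 of 17595 genes. Between the hairpin libraries 0 were higher, beside 1136 of 17082 genes. In the si-Eos-labelled library against Treg 1 was higher and 2 lower, beside 1449 and 5888 of 17897 genes.

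Among all genes, median scaling gave 627 lower in Treg than in naive T (359 in the main setting). Spike-in scaling gave 1487 higher and 198 lower in Treg against naive T (970 and 359), 793 and 2376 in the si-RL-labelled library against Treg (1348 and 1402), and 957 and 2701 in the si-Eos-labelled library against Treg (1583 and 1796). Normexp gave 1894 higher in Treg against naive T, 1136 higher and 827 lower between the hairpin libraries (1829 and 1724), 4473 lower in the si-RL-labelled library and 5888 lower in the si-Eos-labelled library against Treg. Without the filter on dim probes, more genes entered and the counts were 2140 and 982, 3570 and 2861 between the hairpin libraries, 2581 and 2805, and 3021 and 2788. No paired analysis was possible because each group has 1 array. Leaving out an array would end its comparisons. Signal over background limits Fosl1 and the Treg value of Fosl2. The gap between Fos and Fosl2 with the other Fosl2 probe or with normexp was computed after seeing the data.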
